A study of Mus musculus with 8 samples.

Results

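The difference that interferon beta (IFNβ) made to the transcriptome of CD8+ T cells at 6 h of stimulation through the T cell receptor (TCR) was read from 2 arrays hybridised on the same slide. One array carried RNA of cells that received IFNβ for 1 h before 6 h of TCR stimulation, written here as IFNβ 1 h + TCR 6 h. The other carried RNA of cells stimulated through the TCR for 6 h without IFNβ, written as TCR 6 h. For each gene the log2 signal of TCR 6 h was subtracted from that of IFNβ 1 h + TCR 6 h, so that a positive difference means a higher signal with IFNβ. A gene was included when its probe was well above background on 1 or more of the 2 arrays, which held for 19296 of the 28475 gene names on the array. Of these genes, 17674 were well above background on both arrays, 1310 on the IFNβ 1 h + TCR 6 h array only and 312 on the TCR 6 h array only, and the other 9179 gene names gave no usable difference.

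All cells were CD8+ T cells from the spleens of C57BL6 mice with the OT-I transgene, a TCR for the ovalbumin peptide SIINFEKL bound to H-2Kb, and TCR stimulation was given with SIINFEKL streptamers, multimers of that class I molecule loaded with the peptide. The cells were purified with a Pan T cell isolation kit. Besides the pair, the series has IFNβ 1 h + TCR 1 h and TCR 1 h, IFNβ alone for 7 h and for 2 h, and untreated cells. Of these, IFNβ 7 h and 1 of the 2 untreated arrays lay on the same slide as the pair. Every treated condition had 1 array, so no difference in the pair has a replicate, and the number of arrays limits the precision. The labels used here do not state whether IFNβ stayed in the medium during TCR stimulation.

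Type I interferons such as IFNβ bind the receptor chains IFNAR1 and IFNAR2. The kinases JAK1 and TYK2 then activate the factor ISGF3, of which IRF9 is a part and which binds interferon-stimulated response elements in the promoters of antiviral genes. In CD8+ T cells type I interferon can act as a further signal beside the TCR and costimulation. TCR stimulation by itself acts through NFAT, AP-1 and NF-κB to switch on cytokine genes and raises glycolysis.

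Signal is given below as the deposited linear intensity, in which the 75th percentile of every array lies at 1500 and values under 15 are set to 15. Before this scaling the 75th percentile was 807.4 on the IFNβ 1 h + TCR 6 h array and 832.6 on the TCR 6 h array, and 28849 and 27369 of the 43379 non-control spots were well above background. The CD8+ T cell label was checked against its markers, 7 of which were measured with a summed signal of 342708 in IFNβ 1 h + TCR 6 h and 322306 in TCR 6 h. Cd8a, a chain of the CD8 coreceptor, had a signal of 12372 in IFNβ 1 h + TCR 6 h, 6622 in TCR 6 h, 55482 in IFNβ 7 h and 30587 and 30815 in the untreated arrays. The summed signals of markers of other cells, in which bright probes weigh most, in IFNβ 1 h + TCR 6 h and TCR 6 h were 5983 and 5214 for 5 B cell genes, 1948 and 1922 for 6 myeloid genes, 1090 and 1093 for 5 NK cell genes, and 345 and 312 for 4 CD4 T cell genes. Eomes, also listed as an effector and memory transcription factor, made up 759 and 787 of the NK cell sums. For 6 class II presenting cell genes the sums were 13481 and 10494, and for 3 erythroid genes 2989 and 1977. Single markers differed in opposite directions within the myeloid sum, with Lyz2 at 1477 and 1054 and S100a9 at 64.9 and 345. Pax5, Cd22, Itgam and Ncr1 were not well above background on either array of the pair. Fewer cells of a type and less RNA per cell cannot be told apart in such bulk samples.

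The 2 arrays were alike for most genes. The median log2 difference was 0.01 and the central 95% of genes lay between -1.06 and 0.88. A difference of at least 2-fold higher in IFNβ 1 h + TCR 6 h was seen for 351 of 19296 genes (1.82%) and at least 2-fold lower for 569 (2.95%). At 4-fold the counts were 106 higher (0.549%) and 99 lower (0.513%). As a yardstick, the 2 untreated arrays, which lay on different slides, were at least 2-fold apart in either direction for 243 of 19212 genes (1.26%), against 920 genes (4.77%) in the pair. The SD of the log2 difference was 0.51 over the genes of the pair and 0.26 between the untreated arrays. Genes were included by their signal in the pair, so the count and SD of the untreated arrays can be too small as a yardstick. Lrp2 and Prr15, for example, lay at the floor of 15 on both untreated arrays. Most of the differing genes were dim: 260 of the 351 higher genes and 518 of the 569 lower genes had a signal under 1000 on both arrays, as had 10673 of all the genes. Among the 8623 genes with a signal of at least 1000 on 1 or more of the pair, a threshold chosen after the data were seen, 91 were at least 2-fold higher (1.06%) and 51 lower (0.591%), so that higher genes then outnumbered lower ones. The balance of higher and lower genes also depended on scaling: 482 were higher and 402 lower with arrays scaled to their median, which moved the median of all genes to 0.14, 499 and 511 with quantile normalization, and 134 and 86 when the background was corrected by normexp, a model-based method. Of the genes with a signal of at least 1000 in the pair, 3 of 8619 (0.0348%) were 2-fold apart between the untreated arrays. These genes, too, were chosen by the pair.

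No gene passed a test of the difference. The only spread that the design offers for treated cells is the difference between the 2 arrays of IFNβ alone, which differ in duration, and a linear model that borrowed it (limma, 7 samples, 1 residual degree of freedom) called 0 of 19296 genes at a Benjamini-Hochberg adjusted p of 0.05 (0%), with 845 genes (4.38%) at an unadjusted p under 0.05 and a smallest unadjusted p of 0.00045. With normexp in place of the deposited correction, the same model called 17 genes, 15 higher and 2 lower. The higher genes included Ifit3, Ifit3b, Ifit1, Isg15, Usp18, Rsad2, Rtp4, Slfn5, Xaf1, Ifi27l2a and Trim34a, and the lower ones were Plcxd1 and Slc16a3. Differences below are therefore array against array, and higher and lower describe these 2 arrays.

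**Figure D1:**
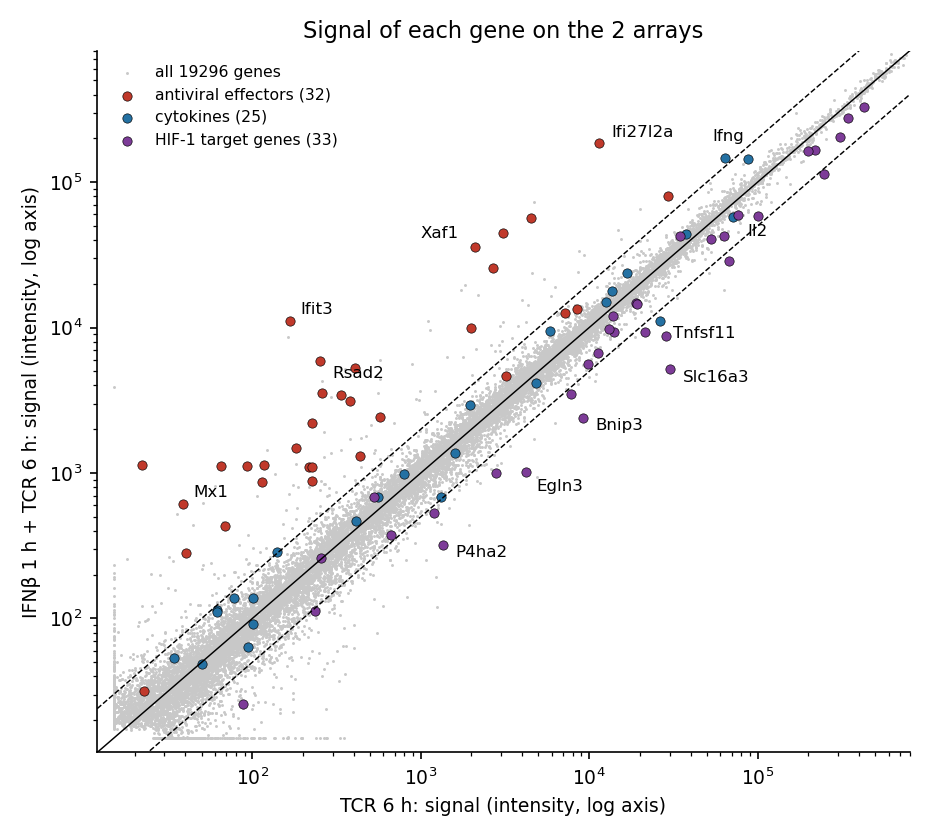
Signal of all 19296 genes, with IFNβ 1 h + TCR 6 h on the vertical and TCR 6 h on the horizontal log axis (intensity units, 1 array each). The solid line marks equal signal and the dashed lines a 2-fold difference. The 32 antiviral effector genes all lie above the solid line, most of the 25 cytokine genes lie between the dashed lines, and 13 of the 33 HIF-1 target genes lie below the lower dashed line.

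Antiviral genes made up the top of the list. Of 32 measured antiviral effector genes, 28 were at least 2-fold higher in IFNβ 1 h + TCR 6 h and 0 at least 2-fold lower, with a median log2 difference of 3.15 (range 0.47 to 6.06) against 0.01 over all genes. None of the 32 was 2-fold apart between the untreated arrays. Ifit3, which belongs to a family of proteins that bind foreign RNA and restrain viral translation, had the largest difference among genes well above background on both arrays. Its probe lies at chr19:34663105-34663164 (mm9). The signal of Ifit3 was 11167 in IFNβ 1 h + TCR 6 h and 167 in TCR 6 h, against 334917 in IFNβ 7 h, 202661 in IFNβ 2 h and 1295 and 1204 in the untreated arrays. The difference in the pair was 6.06 on the log2 scale, or 66.9-fold (limma SE 0.52, adjusted p = 1). TCR 6 h was thus the lowest of these arrays for Ifit3, and IFNβ 1 h + TCR 6 h lay between untreated cells and cells given IFNβ alone.

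In the other genes among the 12 highest IFNβ 1 h + TCR 6 h was also above both untreated arrays and below IFNβ 7 h, while the place of TCR 6 h varied. Rsad2, which encodes viperin, an enzyme that makes a chain-terminating ribonucleotide, had a signal of 5879 in IFNβ 1 h + TCR 6 h, 251 in TCR 6 h, 168092 in IFNβ 7 h and 416 and 389 in the untreated arrays, a difference in the pair of 4.55. Irf7, the factor that drives the late wave of interferon genes, had 4323, 259, 68518, and 1889 and 1857 in the same order, a difference of 4.06. Mx1, a member of the Mx family of GTPases, had 616, 38.7, 73415, and 96 and 93.3, a difference of 3.99. In all 3 genes the TCR 6 h array was below both untreated arrays. Isg15, a ubiquitin-like modifier, was different in that respect, with 73219 in IFNβ 1 h + TCR 6 h, 4727 in TCR 6 h, 257092 in IFNβ 7 h and 1983 and 1750 in untreated cells, a difference of 3.95. Usp18, the protease that removes ISG15 and dampens IFNAR signalling, also stood slightly above untreated cells in TCR 6 h, with 5187 in IFNβ 1 h + TCR 6 h, 354 in TCR 6 h, 125303 in IFNβ 7 h and 319 and 303 in untreated cells, a difference of 3.87. The remaining genes among the 12 highest were Mx2 (4.11), Xaf1 (4.11), Ifi27l2a (4.01), Rtp4 (3.86), Ifit1 (3.79) and Slfn5 (3.71). For Ifi27l2a the 184616 of IFNβ 1 h + TCR 6 h was above the 145619 of IFNβ 2 h.

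Promoter windows of some of these genes are shown because antiviral genes are known for promoter elements that ISGF3 binds. RefSeq entries (GRCm38.p6, 250 bases before the annotated start, 5′ to 3′ in the direction of the gene) were matched by symbol for 7 of the 12 highest genes. The letters GAAA followed by any 2 letters and GAAA again, the core of the interferon-stimulated response element, were searched on both strands and are set in capitals, as matches on the opposite strand are too. They occurred in the windows of Ifit3, Ifit1, Isg15, Rsad2 and Slfn5, and in 3.46% of the 27025 genes with an entry. Entries existed for under 80% of the 12 highest genes, of the 351 higher genes (205) and of the 32 antiviral genes (24), so a share over any of these sets would be void and none is compared.
Ifit3, chr19:34583279-34583528, plus strand: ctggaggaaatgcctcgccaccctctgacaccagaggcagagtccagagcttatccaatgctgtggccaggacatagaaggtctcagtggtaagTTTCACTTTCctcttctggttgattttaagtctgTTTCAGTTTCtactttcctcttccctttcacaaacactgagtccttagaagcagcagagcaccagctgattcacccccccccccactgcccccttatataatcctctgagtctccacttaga
Ifit1, chr19:34640639-34640888, plus strand: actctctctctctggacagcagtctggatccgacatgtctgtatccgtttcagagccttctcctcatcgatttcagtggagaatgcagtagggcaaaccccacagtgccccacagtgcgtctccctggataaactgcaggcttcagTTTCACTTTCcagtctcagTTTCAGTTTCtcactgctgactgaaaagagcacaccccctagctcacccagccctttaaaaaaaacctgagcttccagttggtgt
Isg15, chr4:156200819-156201068, minus strand: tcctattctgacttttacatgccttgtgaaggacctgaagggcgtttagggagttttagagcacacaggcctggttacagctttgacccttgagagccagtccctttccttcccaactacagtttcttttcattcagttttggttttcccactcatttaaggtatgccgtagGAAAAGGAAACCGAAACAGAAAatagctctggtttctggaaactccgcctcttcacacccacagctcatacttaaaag
Rsad2, chr12:26456453-26456702, minus strand: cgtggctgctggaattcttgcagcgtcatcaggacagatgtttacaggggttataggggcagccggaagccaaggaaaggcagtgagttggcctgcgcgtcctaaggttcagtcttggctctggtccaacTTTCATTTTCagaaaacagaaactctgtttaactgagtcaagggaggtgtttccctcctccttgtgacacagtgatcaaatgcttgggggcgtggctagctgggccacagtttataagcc
The matches begin 156 and 122 bases before the start in Ifit3, 104 and 85 bases before it in Ifit1, and 120 bases before it in Rsad2, and in Isg15 there are 3 matches that overlap. The windows of Irf7 and Xaf1 held no match, which says only that these letters are not in this window.

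**Figure D2:**
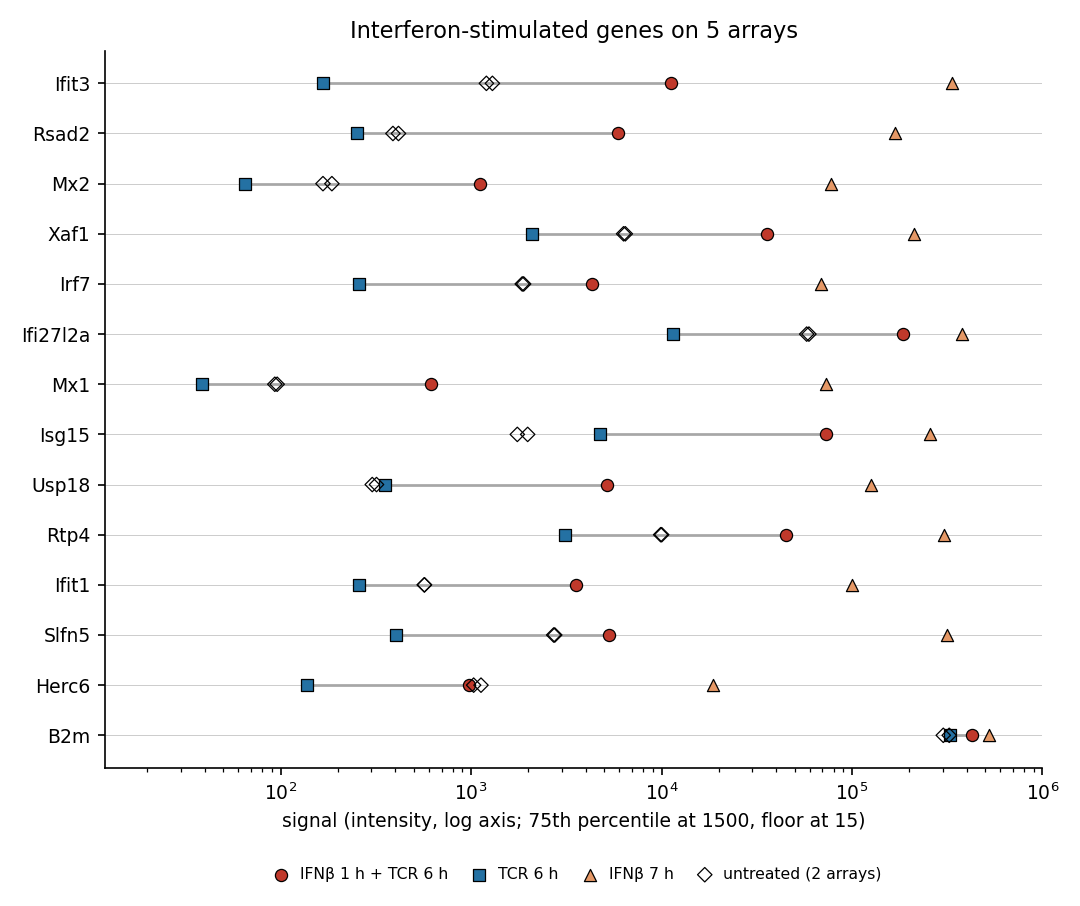
Signal of 14 interferon-stimulated genes (log axis, intensity units) on 5 arrays: IFNβ 1 h + TCR 6 h (circle), TCR 6 h (square), IFNβ 7 h (triangle) and the 2 untreated arrays (open diamonds). The grey line joins the 2 arrays of the pair. For each gene the circle lies right of the square and left of the triangle, and for Herc6 the circle lies at the untreated arrays, with 981 against 1032 and 1128.

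For 1622 genes only 1 array of the pair was well above background, among them 150 of the 351 higher and 218 of the 569 lower genes, and their difference is only a lower bound, computed against the lowest signal among probes well above background on the dim array. Ifit3b, a close copy of Ifit3 whose probe can share its target, had 1142 in IFNβ 1 h + TCR 6 h and 22.1 in TCR 6 h, at least 45.7-fold higher. Ddx60, a helicase of antiviral sensing, had 258 and 18.1, at least 10.3-fold higher, with 14802 in IFNβ 7 h. Sh3gl2 had 233 and 15, at least 9.31-fold higher.

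Other groups of interferon-stimulated genes followed with smaller differences. Of 14 nucleic acid sensor genes, 8 were at least 2-fold higher and 0 lower (median 1.45), led by Tlr7 (3.55), an endosomal receptor for single-stranded RNA, Ifih1 (3.52), which encodes the sensor MDA5, Zbp1 (3.09), a sensor of Z-form nucleic acid, and Dhx58 (2.85), which encodes LGP2. Of 6 genes of ISG15 conjugation, 5 were at least 2-fold higher (median 2.13). Herc6, the mouse ligase of ISG15, had 981 in IFNβ 1 h + TCR 6 h and 137 in TCR 6 h, a difference of 2.83, against 18714 in IFNβ 7 h and 1032 and 1128 in untreated cells. The higher array of the pair was here slightly below untreated cells. Of 8 PARP genes 3 were at least 2-fold higher, Parp12 (1.81), Parp14 (1.71) and Parp9 (1.58), with a median of 0.76. Another Parp14 probe gave 0.46.

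The interferon-inducible GTPases, which attack the vacuoles of intracellular pathogens, had a median of 0.61 in the pair, against 4.08 between IFNβ 7 h and untreated cells. In the pair 3 of 15 were at least 2-fold higher, Gbp6 (1.74), Irgm1 (1.61) and Gbp9 (1.44), while all 15 were at least 2-fold higher after IFNβ 7 h, where 1695 of 19254 genes (8.8%) were. Ifi47 had 39727 in IFNβ 1 h + TCR 6 h and 22171 in TCR 6 h, a difference of 0.84, against 195187 in IFNβ 7 h. Class I presentation had no gene past 2-fold in 21 (median 0.28, range -0.04 to 0.64), although 20 of the 21 were above 0 and 15 were at least 2-fold higher after IFNβ 7 h. Psmb10, a subunit of the immunoproteasome, had 14057 in IFNβ 1 h + TCR 6 h and 8992 in TCR 6 h, both below the 29167 and 29371 of untreated cells and the 192046 of IFNβ 7 h. Tap1, a chain of the peptide transporter, had 7144 and 5104, a difference of 0.49.

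Components of the interferon pathway itself differed little, apart from its inducible factors. Of 27 interferon signalling genes 3 were at least 2-fold higher, Irf7, Stat2 (1.65) and Irf9 (1.39), and the median was 0.02. The receptor chain Ifnar1 had 4891 and 3815 in the pair, both below the 12027 and 12645 of untreated cells, and Ifnar2 had 2467 and 2694. Socs1, a feedback inhibitor of JAK kinases, had 5330 in IFNβ 1 h + TCR 6 h and 4722 in TCR 6 h, a difference of 0.17, against 32983 in IFNβ 7 h and 5077 and 5056 in untreated cells. The pair and the untreated cells were close for Socs1, although its window holds 2 overlapping matches to the letters capitalised for the antiviral genes, and it is shown to compare with them.
Socs1, chr16:10785537-10785786, minus strand: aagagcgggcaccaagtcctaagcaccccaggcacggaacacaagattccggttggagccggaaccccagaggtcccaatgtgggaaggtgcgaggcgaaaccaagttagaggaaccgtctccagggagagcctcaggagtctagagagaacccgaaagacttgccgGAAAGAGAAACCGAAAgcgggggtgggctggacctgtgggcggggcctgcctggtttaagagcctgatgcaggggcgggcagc

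The pair was then set against IFNβ 7 h minus untreated cells, a comparison that shares no array with it. Of the 351 genes at least 2-fold higher in the pair, 170 (48.4%) were also at least 2-fold higher after IFNβ 7 h, which is 10% of the 1695 genes past 2-fold there, and 24 were at least 2-fold lower there. Of the 569 lower genes 46 (8.08%) were also at least 2-fold lower after IFNβ 7 h, 4.07% of the 1131 genes (5.87%) past 2-fold there, and 70 were at least 2-fold higher there. Markers of other cells were mixed in the IFNβ 7 h comparison. All 5 B cell genes were at least 2-fold higher there (median 1.44), against a median of -0.01 in the pair. Of 5 NK cell genes 3 were higher, among them Eomes, and 1 lower (median 2.33), against a median of 0.05 in the pair. Of 6 myeloid genes 1 was higher and 2 lower (median -0.27). Of 6 class II presenting cell genes 0 were higher and 1 lower, and of 3 erythroid genes 2 were higher and 0 lower. The part of these markers in the counts above was not tested. Across 19254 genes, which are not independent replicates, Pearson's r of the 2 differences was 0.20 and Spearman's rho -0.01.

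The likeness lay at the top of the IFNβ 7 h ranking. Of 103 genes higher after IFNβ 7 h by a log2 of at least 4, 76 (73.8%) were at least 2-fold higher in the pair and 1 was at least 2-fold lower, with a median difference of 1.97. Of 356 genes higher there by a log2 of 2 to 4, 61 (17.1%) were higher in the pair and 15 lower (median 0.36). Of 1236 genes higher by a log2 of 1 to 2, 33 (2.67%) were higher and 54 lower (median 0.01). Among 16428 genes within 2-fold, 154 (0.937%) were higher and 448 (2.73%) lower.

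For the 459 genes at least 4-fold higher after IFNβ 7 h (2.38%), the median difference in the pair was 0.50, with quartiles of 0.06 and 1.34, and 355 were above 0. In 428 of the 459 the signal was lower in IFNβ 1 h + TCR 6 h than in IFNβ 7 h, by a median of 2.65 on the log2 scale. In IFNβ 1 h + TCR 6 h 289 of the genes were above both untreated arrays and 155 below both, and in TCR 6 h 192 were above both and 246 below both. In 31 of the 32 antiviral genes IFNβ 1 h + TCR 6 h was below IFNβ 7 h, with a median gap of 4.45. It was above both untreated arrays in 25 and below both in 7, and TCR 6 h was below both in 28. Relative to untreated cells the antiviral median was 2.08 in IFNβ 1 h + TCR 6 h, -1.34 in TCR 6 h and 5.51 in IFNβ 7 h. A test of whether the IFNβ difference with TCR stimulation differs from that without it (limma, the arrays of IFNβ 2 h and 7 h as 1 group) called 0 of 19296 genes (0%), with 1642 (8.51%) at an unadjusted p under 0.05 and a smallest adjusted p of 0.58.

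**Figure D3:**
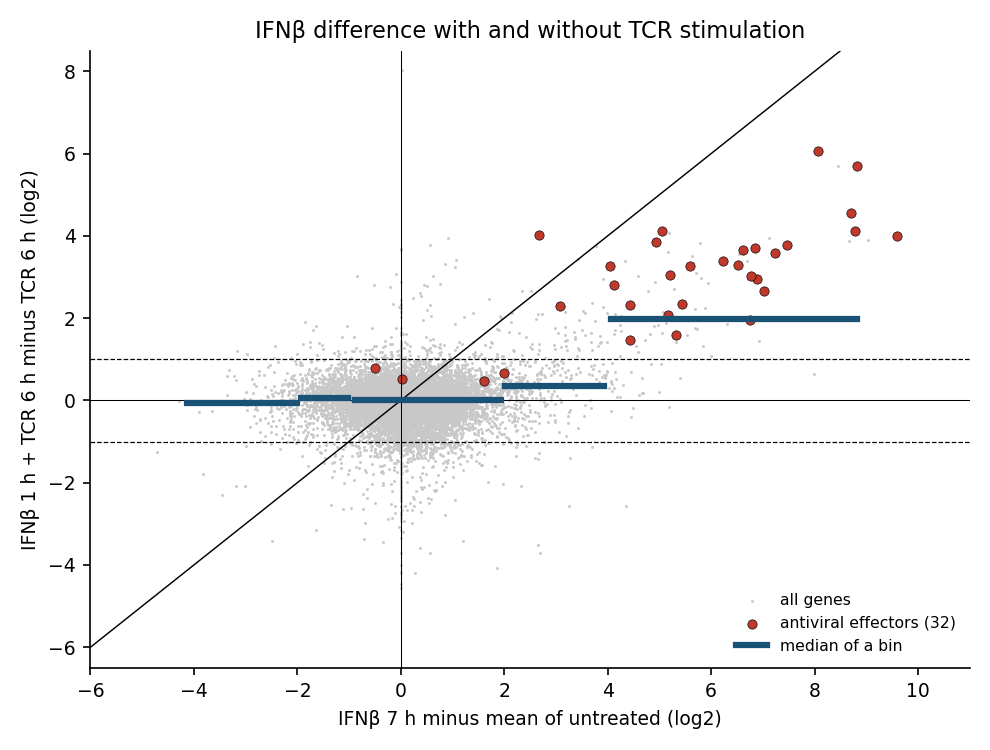
Log2 difference of IFNβ 1 h + TCR 6 h minus TCR 6 h (vertical) against that of IFNβ 7 h minus the mean of the 2 untreated arrays (horizontal) for each gene, with the 32 antiviral genes in red. The diagonal marks equal differences, the dashed lines a 2-fold difference in the pair, and the bars the median of each of 6 bins of the horizontal axis, 1.97 in the bin at the far right and 0.36 in the next. Nearly all antiviral genes lie below the diagonal.

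Cytokine genes, which TCR stimulation switches on, were mostly alike in the pair. Of 25 measured, 2 were at least 2-fold higher, 1 was at least 2-fold lower, and the median was 0.31. Ifng, the gene of interferon gamma, had 147456 in IFNβ 1 h + TCR 6 h and 63799 in TCR 6 h, 2.31-fold higher (log2 1.21, limma SE 0.35, adjusted p = 1), against 313 in IFNβ 7 h and 287 and 274 in untreated cells. Its second probe gave 1.33. Il6 was dim, with 286 and 141. Tnfsf11, which encodes RANKL, had 11086 in IFNβ 1 h + TCR 6 h and 26466 in TCR 6 h, 2.39-fold lower, against 16.7 in IFNβ 7 h and 437 and 436 in untreated cells. Both TCR-stimulated arrays were thus far above untreated cells for Ifng and Tnfsf11, in opposite order.

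The growth factor cytokines were close on both arrays of the pair. Il2 had 57190 in IFNβ 1 h + TCR 6 h and 71358 in TCR 6 h (-0.32), Il3 had 4168 and 4818 (-0.21), and Csf2, the gene of GM-CSF, had 14906 and 12656 (0.24). At 1 h of TCR stimulation the same genes had 1133 in IFNβ 1 h + TCR 1 h and 19252 in TCR 1 h for Il2, 133 and 1591 for Il3, and 48.9 and 796 for Csf2. The deposited values of those 2 arrays each matched the other's scanner file, so the direction at 1 h rests on the deposited value table, and the change between the times was not tested. In that table Ifit3 had 198303 in IFNβ 1 h + TCR 1 h and 681 in TCR 1 h, and the antiviral list had a median log2 difference of 5.63. Tnf had 17779 in IFNβ 1 h + TCR 6 h and 13707 in TCR 6 h, a difference of 0.38.

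Among 12 chemokine genes, 2 were at least 2-fold higher and 0 lower. Cxcl10, a ligand of CXCR3 that interferons induce, had 21687 in IFNβ 1 h + TCR 6 h and 5404 in TCR 6 h, 4.01-fold higher, against 192797 in IFNβ 7 h and 625 and 612 in untreated cells. Ccl1, a ligand of CCR8, had 1249 and 572, 2.18-fold higher, against 16.6 in IFNβ 7 h. The chemokines of activated CD8+ T cells were near the same level, Xcl1 with 366913 and 283541 (0.37), Ccl3 with 318820 and 270015 (0.24) and Ccl4 with 552172 and 551336 (0.00).

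**Figure D4:**
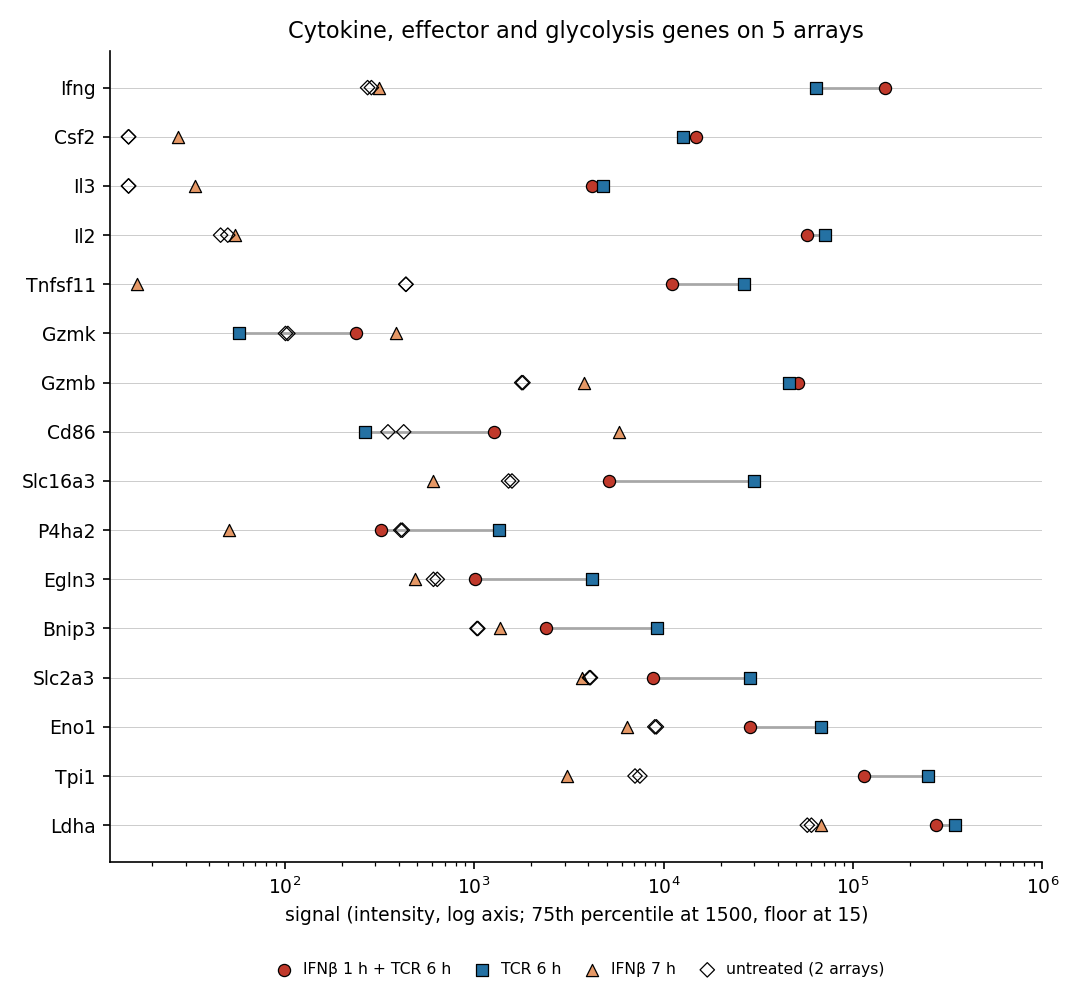
Signal of 16 cytokine, effector, costimulatory, hypoxia and glycolysis genes (log axis, intensity units) on 5 arrays, with symbols as in the plot of interferon-stimulated genes and a grey line joining the pair. Ifng, Gzmk and Cd86 have the circle of IFNβ 1 h + TCR 6 h to the right, Il2, Il3, Csf2 and Gzmb have it close to the square of TCR 6 h, and Tnfsf11 and the 8 genes from Slc16a3 down have it to the left.

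Genes of the cytotoxic programme were mixed, with 3 of 19 at least 2-fold higher and 1 lower (median 0.16). Gzmb, the gene of granzyme B, had 51198 in IFNβ 1 h + TCR 6 h and 45686 in TCR 6 h (0.16), and Prf1, the gene of perforin, had 5830 and 4379 (0.41). Gzmk had 239 and 57.2, 4.18-fold higher, with 387 in IFNβ 7 h and 101 and 104 in untreated cells. Gzma had 201 and 89.6, 2.24-fold higher and below the 537 and 518 of untreated cells. Gzmc had 8675 in IFNβ 1 h + TCR 6 h and 18737 in TCR 6 h, 2.16-fold lower. Ctsw, a cathepsin of cytotoxic cells, had 4127 and 2059, far below the 33270 and 34501 of untreated cells.

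Activation and differentiation genes were close on both arrays. Among 27 activation and costimulatory receptors 1 was at least 2-fold higher, Cd86, a CD28 and CTLA-4 ligand, with 1279 in IFNβ 1 h + TCR 6 h and 265 in TCR 6 h (2.27 by the brighter probe and 0.98 by the other), and 1 was lower, Tnfrsf8 (-1.39), at 49.7 and 131. Cd69 differed by 0.22 and Il2ra, the high-affinity chain of the IL-2 receptor, by 0.26. None of 15 inhibitory receptors and none of 29 effector and memory transcription factors passed 2-fold. Tbx21, which encodes T-bet, had 9800 and 6014 (0.70), and Eomes had 759 in IFNβ 1 h + TCR 6 h and 787 in TCR 6 h (-0.05), against 3162 in IFNβ 7 h and 369 and 366 in untreated cells. Of 32 immediate early genes, 1 was at least 2-fold higher, Gadd45g (1.33), a stress sensor, and 1 lower, Ier3 (-1.34), with Egr1 at 0.53, Nr4a1 at -0.14 and Myc, listed apart, at 0.14.

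Naive T cell genes that were low after TCR stimulation were low on both arrays. Il7r had 759 in IFNβ 1 h + TCR 6 h and 526 in TCR 6 h, against 104797 and 106565 in untreated cells, and S1pr1, the receptor that lets T cells leave lymph nodes, had 327 and 385, against 52876 and 51852. Of 29 genes of this list 1 was at least 2-fold higher, Ly6c1 (1.38), with 7561 in IFNβ 1 h + TCR 6 h, 2911 in TCR 6 h and 60530 in IFNβ 7 h. Of 24 chemokine receptor and adhesion genes 2 were at least 2-fold lower, Cxcr6 with 23548 and 51700 (-1.13) and the dim Ccr8 with 19.5 and 50.5 (-1.37). Of 36 TCR signalling genes 3 were lower, Cblb (-1.36), a ubiquitin ligase that restrains activation, Themis (-1.31) and Pag1 (-1.05), although another Pag1 probe gave 0.72.

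The mixed list of glycolysis and nutrient uptake genes stood out among the lists for lower signal. Of 30 genes of glycolysis and nutrient uptake, 8 were at least 2-fold lower and 0 higher, with a median of -0.49 (range -2.55 to 0.64). The 7 members above 0 were all amino acid transport genes, with Slc7a11 (0.64) the highest. Slc16a3, which encodes MCT4, the exporter of lactate, led the list. It had 5157 in IFNβ 1 h + TCR 6 h and 30151 in TCR 6 h, against 608 in IFNβ 7 h, 565 in IFNβ 2 h and 1584 and 1520 in untreated cells, a difference of -2.55 or 5.85-fold lower (limma SE 0.18, adjusted p = 1). Its probe lies at chr11:120820023-120820082 (mm9). Both TCR arrays were above untreated cells, and TCR 6 h was the highest. Slc2a3, the glucose transporter GLUT3, had 8780 and 28531 (-1.70), Eno1, an enolase, had 28520 and 68066 (-1.25), and P4ha1, a collagen prolyl hydroxylase in the list, had 9296 and 21570 (-1.21).

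Several of these genes are known targets of the hypoxia-inducible factor HIF-1, which is also active in TCR-stimulated T cells, and a list of 33 HIF-1 targets was drawn up after the values had been seen. Of the 33, 13 were at least 2-fold lower and 0 higher, 3 were above 0 and the median was -0.76. The list shares Slc16a3, Slc2a3, Eno1, Tpi1, Pdk1, P4ha1 and other members with the glycolysis and nutrient uptake list. The lists are therefore not separate observations. Over other scalings, background corrections, filters and probe choices, 11 to 13 of the HIF-1 targets were at least 2-fold lower. Those settings used the same arrays, so they do not test a list drawn up after the values were seen. The members named here were likewise chosen after their values were seen. P4ha2 had 321 in IFNβ 1 h + TCR 6 h and 1351 in TCR 6 h (-2.07), Egln3, the oxygen sensor PHD3, had 1012 and 4198 (-2.05), and Bnip3, a mitophagy receptor, had 2399 and 9228 (-1.94). In untreated cells P4ha2 had 418 and 410, Egln3 610 and 639, and Bnip3 1035 and 1047. Pdk1, which encodes a pyruvate dehydrogenase kinase, had 3512 and 7773 (-1.15), and Tpi1 had 113776 and 249288 (-1.13). Other members differed less, among them Ldha at -0.32, Hk2 at -0.57, Slc2a1, the glucose transporter GLUT1, at -0.78 and Vegfa at -0.41, and Ndrg1 (0.30), Adm (0.38) and Car9 (0.02) were above 0. After IFNβ 7 h the median of this list was -0.36 against untreated cells.

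The window of Slc16a3 is shown because this gene leads the lower group. The letters ACGTG, the core of the hypoxia response element, were searched on both strands, are set in capitals and begin 27 and 14 bases before the start.
Slc16a3, chr11:120948817-120949066, plus strand: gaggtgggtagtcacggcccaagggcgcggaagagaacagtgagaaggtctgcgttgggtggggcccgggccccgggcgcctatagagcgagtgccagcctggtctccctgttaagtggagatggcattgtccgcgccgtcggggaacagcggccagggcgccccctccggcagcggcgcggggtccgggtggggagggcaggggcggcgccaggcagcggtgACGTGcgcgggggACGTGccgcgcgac
ACGTG was found in 18.5% of the 27025 genes with an entry. Among genes with an entry it was found in 14 of 26 glycolysis genes (53.8%) and 19 of 29 HIF-1 targets (65.5%). It was also found in 43.8% of 16 cytotoxic effector genes, 41.7% of 12 inhibitory receptor genes and 40.7% of 27 stress and ATF4 genes with an entry. Entries existed for 11934 of the 19296 measured genes, of which 2773 had a match. They existed for 186 of the 569 genes at least 2-fold lower, of which 37 had a match. By the rule used for the antiviral genes these entries are too few, so no share over either set is compared. A match describes the letters only, and the list was built from known HIF-1 targets.

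The other genes at the bottom of the ranking were mostly dim and had no shared known role. Plcxd1, a phospholipase-like protein, had 120 in IFNβ 1 h + TCR 6 h and 1246 in TCR 6 h, 10.3-fold lower, with 15 in IFNβ 7 h and 19.7 and 30.6 in untreated cells. Cd55b, a mouse decay-accelerating factor of complement, had 41.8 and 354, against 637 and 683 in untreated cells. The remaining 9 of the 12 lowest besides Slc16a3 were Mgarp (-2.79), Tmem95 (-2.70), Chrna6 (-2.67), Stkld1 (-2.61), Mettl13 (-2.56), Pcdh15 (-2.56), Fah (-2.49), Egfr (-2.48) and S100a9 (-2.41). Among these 9 the highest signal on either array of the pair was the 549 of Mgarp in TCR 6 h. Genes well above background in TCR 6 h only included Lrp2, with 274 there and 15 in IFNβ 1 h + TCR 6 h and on the other arrays, at least 16-fold lower, and Nexn, Prr15 and Sardh, at least 11.4-fold, 11.4-fold and 10.5-fold lower. S100a9 and S100a8 (-1.79) are neutrophil genes, with 64.9 and 345 for S100a9 and 39.7 and 138 for S100a8. Itgax, a dendritic cell integrin, had 51.9 and 171 (-1.72), although its other probe gave -0.41. The other 5 class II presenting cell genes were above 0. The part of these genes in other results was not tested.

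The remaining lists had medians near 0 in the pair. MYC network and ribosome biogenesis had 1 of 45 genes at least 2-fold lower, Mxi1 (-1.18), and 0 higher (median 0.08). Cell cycle and DNA replication had 0 of 39 past 2-fold (median 0.25), with Cdkn1a, the inhibitor p21, at 14365 in IFNβ 1 h + TCR 6 h and 8255 in TCR 6 h (0.80). Stress and ATF4 genes had 0 of 29 past 2-fold (median 0.08) and NF-κB and NFAT genes 0 of 22 (median -0.04). Of 30 apoptosis and survival genes 1 was higher, Mlkl, the executor of necroptosis, with 448 and 152 (1.56). Of 25 genes of cholesterol and lipid synthesis 1 was higher, the dim Ch25h, at 34.7 and 15, which is at least 1.39-fold.

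**Figure D5:**
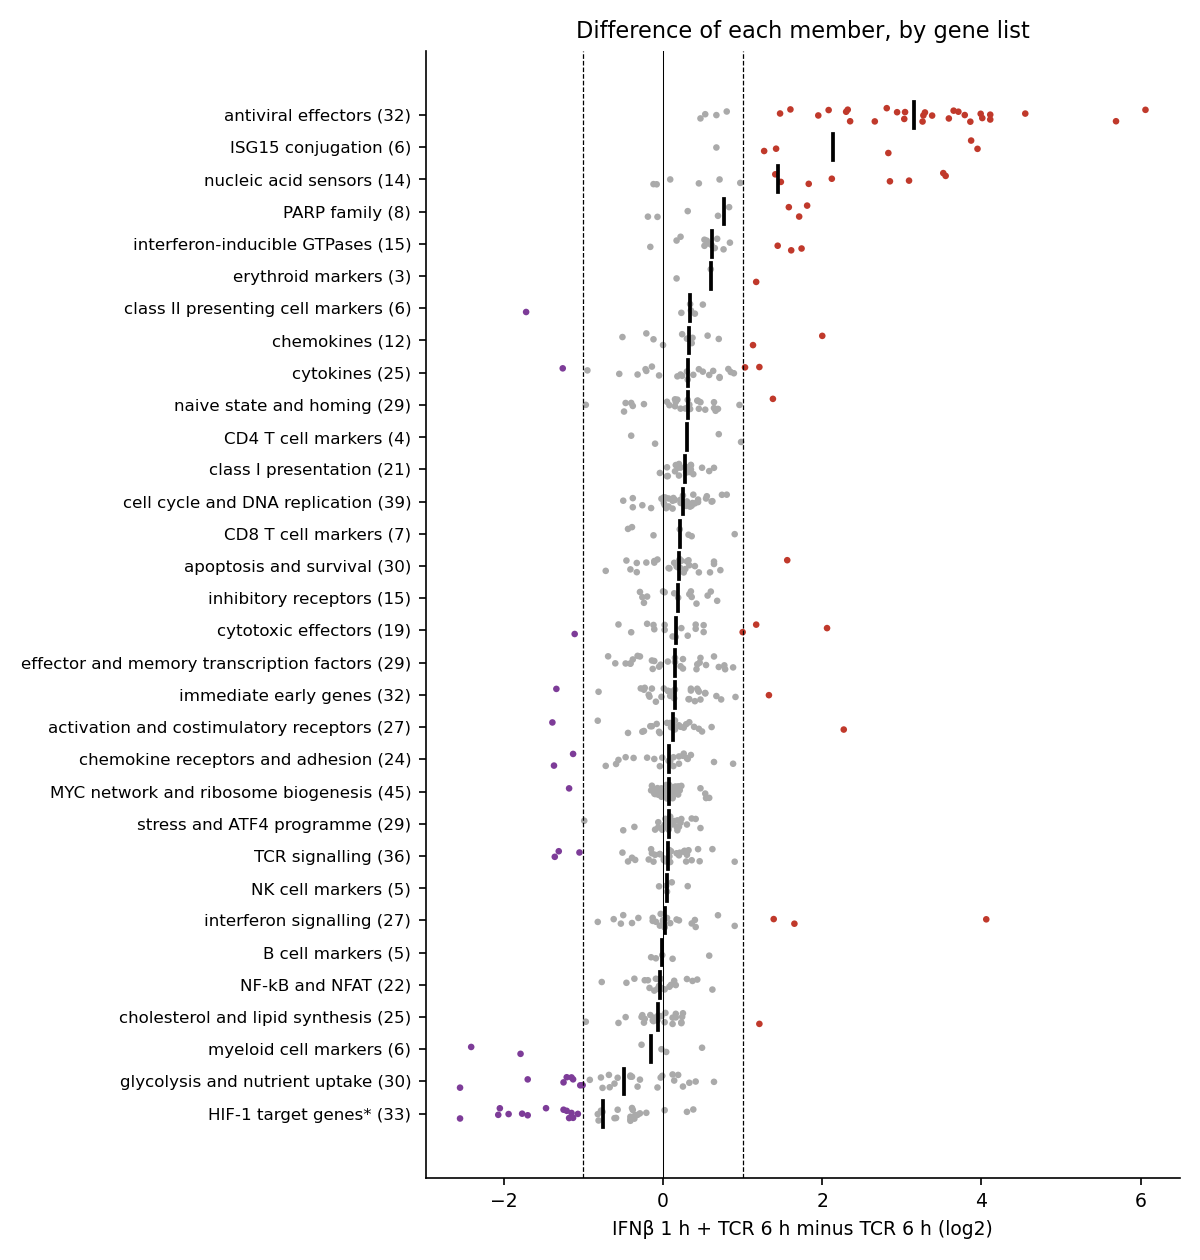
Log2 difference of IFNβ 1 h + TCR 6 h minus TCR 6 h for each measured member of 32 gene lists, ordered by the list's median (black bar), with the number of members in brackets. Red points are at least 2-fold higher and purple points at least 2-fold lower, and the asterisk marks the list drawn up after the values were seen. The 5 lists of interferon-stimulated genes at the top have medians from 0.61 to 3.15, and the glycolysis and HIF-1 lists at the bottom have -0.49 and -0.76.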

How the data were processed

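Messenger RNA was measured on 8 Agilent mouse arrays with 1 dye, from 2 slides of 4. The authors' scanner files give linear intensity, per the file headers background-subtracted and detrended within each array by Feature Extraction 10.7.3.1 (9.5.3.1 per the submitters' processing notes), in build mm9. The deposited value table is also intensity: each column was the scanner intensity of 1 array multiplied by a constant (1.209 to 1.857) that put the 75th percentile at 1500 and a floor of 15. The medians of its columns were 89.57, 102.4, 92.62, 95.78, 92.25, 100.6, 80.68 and 73.76. Scale, centring and direction were thus known, and the values were used on the log2 scale. The columns of the 1 h pair matched each other's scanner file, and the value table's assignment was kept.

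Per array 1639 control spots and 100 to 246 outlier spots were left out, 0 spots were saturated, and spots of 1 probe were averaged as log2 values. Of 41174 probes 26787 were named by accession (for 3210 the symbol differed from that in the file) and 14387 kept the name in the file. Each gene took its brightest probe by mean over the 8 arrays among probes well above background on 1 or more of the pair. Of 5962 genes with several such probes, 411 had probes at least 2-fold apart in the difference and 2 had probes past 2-fold in opposite directions.

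Linear models used limma 3.58.1 in R 4.3.3 with the untreated arrays averaged to 1 sample and IFNβ 2 h and 7 h sharing a mean, and were tested on simulated data. The p-values of this model measure only the spread between the IFNβ 2 h and 7 h arrays, which differ in duration and are not replicates. Nothing says that arrays came from separate cultures or animals, so this spread need not include that between cultures or animals. Members and gene lists were chosen with earlier results of these data known. Named were the 12 highest and 12 lowest genes well above background on both arrays, the 4 brightest in each direction on 1 array only, the 4 largest of each of 31 lists and a set always given, of which some are not reported here. Figures used matplotlib 3.10.9 in Python 3.11.15. Other background correction, scaling, filters, probe choice and spread were tried.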

Additional observations from a re-analysis of the deposited data

How the results depend on the processing

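With normexp background correction 134 genes were at least 2-fold higher and 86 at least 2-fold lower, the antiviral median was 2.46, the model of the pair called 17 genes and that of the difference between IFNβ differences 93, 20 of them higher and 73 lower. With probes well above background on both arrays the 2-fold counts were 201 and 352, and at a signal of at least 1000, chosen after seeing the data, 91 and 51. With the spread of the untreated arrays only, the second model called 6135 genes, 2890 higher and 3245 lower. Scaling to the array median gave 482 and 402, and quantile normalization 499 and 511. The cause of these moves was not tested. The model of the pair called 0 genes under every setting but normexp, with 459 to 6353 genes at an unadjusted p under 0.05 in those settings. Of the values of single genes and lists under the alternatives, 1595 stayed within the spread of the untreated arrays, 101 moved and 0 reversed. The untreated arrays do not enter the difference or the spread of the pair, so leaving 1 out tests nothing there. No paired analysis was possible because every treated condition has 1 array. Signal near background, and 1 array per condition, limit the differences of dim genes.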
